A study of Mus musculus with 8 samples.

Results

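Respiratory complex I takes electrons from NADH, passes them to ubiquinone and pumps protons across the inner mitochondrial membrane. It has a peripheral arm in the matrix, made of the N module that oxidises NADH and the Q module that reduces ubiquinone, and a membrane arm that pumps. Most of its subunits are encoded in the nucleus and some in the mitochondrial genome, and assembly factors, which are not part of the finished enzyme, put the modules together. Heart muscle is rich in mitochondria and makes most of its ATP by respiration.

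Described here are 45 of the 17911 genes in the deposited table, chosen by name: all genes called Ndufa, Ndufb, Ndufc, Ndufs or Ndufv with a number, and the numbered Ndufaf genes. They comprise 35 nuclear subunits of complex I (7 core subunits that carry out the chemistry and 28 accessory ones), the 8 assembly factors Ndufaf1 to Ndufaf8, and Ndufa4 and its relative Ndufa4l2, whose family was named for complex I but is found with complex IV. All 45 are protein-coding genes. The pattern takes neither Ndufab1, the acyl carrier subunit, nor the subunits of the mitochondrial genome, which are given for comparison.

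The series profiled whole hearts of wild-type C57Bl6/J mice by RNA sequencing to compare 4 female with 4 male animals. Every animal was untreated as far as the labels say, each heart was extracted singly, and the age is given both as 4 weeks and as a span of 4 to 6 weeks. Female replicates carry the numbers 1 to 4 and male replicates the numbers 1, 3, 4 and 5, and all 8 samples share 1 batch label. Between 51.7 M and 75.7 M reads per heart were assigned to genes, where the labels state over 80 M reads. The 45 members had at least 665 reads each in every heart. All 6 cardiomyocyte markers examined (Myh6, Tnnt2, Actn2, Ryr2, Tnni3 and Pln) were abundant in each heart, while the measured skeletal muscle markers Tnnt3, Actn3 and Tnni2 had mean normalised read counts of only 56.5 to 178. Values are whole-heart RNA, in which fewer cells of a type and less RNA per cell cannot be told apart. Values are normalised read counts unless a scale is named, and a value after ± is the SD over the 4 hearts of a sex.

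Factors known for driving respiratory genes in mammals include NRF1, the ETS factor GABP, YY1 and the ERR receptors. RefSeq promoter windows (GRCm38.p6, 250 bases before to 50 after the start) were available for 39 of the 45 members, 41 windows in all, and both strands were searched. For 2 members, Ndufa5 and Ndufa7, overlapping windows were counted separately, so the 10 windows with the NRF1 motif stand for 9 genes. The NRF1 motif (GCGC, any base, then TGCGC) was present in 10 of these 41 windows (24.4%, against 4.60% of all 32851 windows), in the genes Ndufa5, Ndufa6, Ndufa8, Ndufa11, Ndufaf4, Ndufaf5, Ndufb4, Ndufs5 and Ndufs6. The YY1 motif AAGATGGCG was present in 6 windows (14.6%, against 1.40% of all windows), those of Ndufa9, Ndufaf8, Ndufc1, Ndufs4, Ndufs6 and Ndufs7. The CREB and ATF motif TGACGTCA was in 3 windows (7.32%, against 1.79%), and the E-box CACGTG in 3 windows of 2 members (7.32%, against 7.15%). The ETS motif CCGGAAGT was in 1 (2.44%, against 3.89%) and the ERR motif TCAAGGTCA in 0 (against 0.423%). These matches are descriptions of letters, and the windows of the members were also richer in G and C than all windows, with a median GC content of 59.3% against 52.7%. Matches of different motifs overlapped in 0 of the 41 windows. The stretches of 250 bases before the start are shown for Ndufaf4, the member furthest above 0 in the comparison of the sexes. They are also shown for Ndufa11, an example from those below 0, and for Ndufaf1, the member with the smallest p. Capitals mark the NRF1 motif and, in Ndufa11, also the CREB and ATF motif nearer the 5′ end. The positions are chr4:24897833-24898082 (plus strand), chr17:56717512-56717761 (plus strand) and chr2:119662835-119663084 (minus strand) in the order of the lines.
Ndufaf4: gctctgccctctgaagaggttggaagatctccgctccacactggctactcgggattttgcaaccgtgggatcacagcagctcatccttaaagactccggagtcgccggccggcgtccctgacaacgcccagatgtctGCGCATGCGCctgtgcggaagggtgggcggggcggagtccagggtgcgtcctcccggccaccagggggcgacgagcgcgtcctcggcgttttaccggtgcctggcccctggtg
Ndufa11: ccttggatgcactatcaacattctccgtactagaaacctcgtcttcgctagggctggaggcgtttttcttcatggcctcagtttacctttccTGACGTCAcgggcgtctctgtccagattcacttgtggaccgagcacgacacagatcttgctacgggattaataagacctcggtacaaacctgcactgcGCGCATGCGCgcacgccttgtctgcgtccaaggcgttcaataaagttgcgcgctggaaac
Ndufaf1: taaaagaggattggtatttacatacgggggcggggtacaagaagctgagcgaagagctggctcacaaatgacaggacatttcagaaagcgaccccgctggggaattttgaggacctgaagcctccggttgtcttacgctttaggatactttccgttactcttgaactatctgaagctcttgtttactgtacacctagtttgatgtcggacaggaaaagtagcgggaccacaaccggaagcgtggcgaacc
Ndufaf4 and Ndufa11 both hold an NRF1 match in this stretch, and Ndufaf1 holds none of the motifs searched. The part of these motifs in the comparison of the sexes was not tested.

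Levels between genes were compared per 1000 bases of exon, as means over the 8 hearts. Ndufb9, a distal membrane arm subunit (chromosome 15, 58933756 to 58939488), had the highest level, with 26744 ± 1194 in females and 27795 ± 1027 in males. Before division by length it had 27242, 26776, 29395 and 26880 in female replicates 1 to 4, against 27279, 29273, 29667 and 28406 in male replicates 1, 3, 4 and 5. The sexes overlapped, with female replicate 3 above 3 of the 4 males. Ndufa4 followed with 26386 ± 1104 and 27397 ± 855 in the same order. By the longest coding transcript Ndufa4 was first, with 60880 against 39935 for Ndufb9 over the 8 hearts. For Ndufb9, 19.5% of exon bases are shared with a predicted gene on the same strand, so the source of part of its reads is uncertain.

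The 35 subunits spanned a wide range of levels although each is thought to be present as a single copy in the enzyme. By union length they ran from 1400 per 1000 bases in Ndufb2, in the distal membrane arm, to 27269 in Ndufb9, a ratio of 19.5. The ratio was 22.2 with either transcript length. This low end rests on the long annotation of Ndufb2 (5628 bases by union, 4371 by the longest coding transcript). Before division by length its mean was 7876, above the 4727 of Ndufb4. The next lowest subunit was Ndufb4, with 2467 by union length and 4868 by the longest coding transcript. By union length the 7 core subunits had a median of 12789, the lowest being Ndufs1 with 6009, against 10635 for the 28 accessory subunits. By either transcript length Ndufs1 had 18259 and the lowest core subunit was Ndufs8, with 12424. Order inside the subunits depended on the length used: the level of 11 members was over 1.5 times higher with the longest transcript and that of 17 with the longest coding transcript. The clearest case was Ndufb7, which had 2868 by union length and 20818 by the longest coding transcript.

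Assembly factors were expressed far below the subunits. Their level per 1000 bases ran from 325 in Ndufaf2, the lowest member, to 1742 in Ndufaf1, and their median of 771 was 14.3 times below the subunits' median of 11003. With the other lengths this ratio was 15.3 and 14.4. All 8 ranked between 36 and 45 of the 45 members with each length. Ndufaf2, which binds late assembly intermediates in place of Ndufa12, had 312 ± 10.3 per 1000 bases in females and 337 ± 11.6 in males. Of its exon bases 65.7% lie opposite B230220B15Rik, and since the strand setting is not given the source of its reads is uncertain; by the longest coding transcript the lowest member was instead Ndufaf7, with 605. Ndufaf7 had normalised read counts of 1710, 1534, 1628 and 1542 in female replicates 1 to 4, against 1658, 1706, 1669 and 1648 in male replicates 1, 3, 4 and 5, and female replicate 1 was the highest of the 8 hearts.

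**Figure D1:**
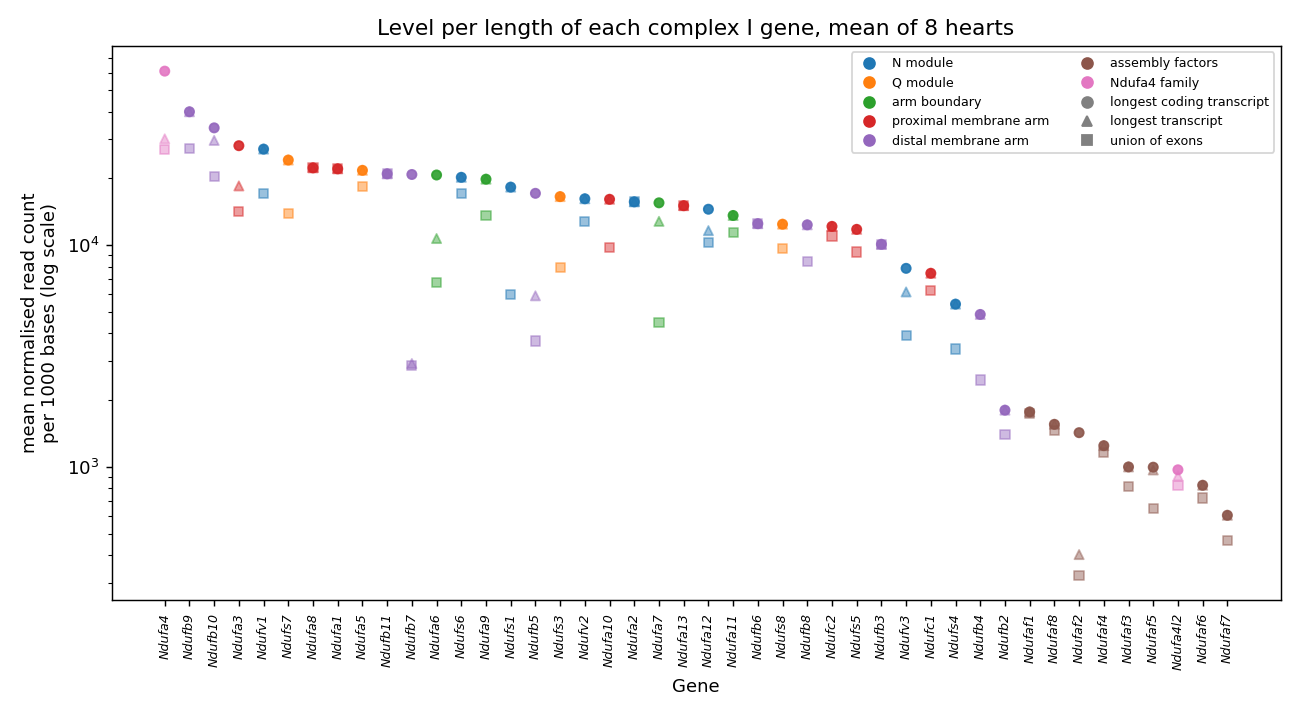
Mean normalised read count per 1000 bases of 44 of the 45 genes over 8 hearts, on a log axis, in order of the level by longest coding transcript; colours give the role group and symbols the 3 lengths used. The assembly factors lie at the low end, at 325 to 1742 by union of exons, and Ndufb2 is the lowest subunit.

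No member of the 45 passed the test between female and male hearts. In limma 0 passed the adjusted p threshold of 0.05, where 1.16% of all genes did (0.687% lower and 0.475% higher in females). An unadjusted p under 0.05 was found for 9 members, 8 lower and 1 higher in females, where 16% of all genes had one. Log2 fold changes, female minus male, ran from -0.15 (Ndufaf6) to 0.14 (Ndufaf4). Over the 35 subunits the 95% intervals reached -13.3% (Ndufa6) and 8.46% (Ndufs7), female against male, and over all 45 members -15.6% (Ndufaf6) and 17.9% (Ndufaf4). With edgeR and with limma-voom 0 members passed, and with DESeq2 1 passed, Ndufaf1, where DESeq2 called 4.9% of the genes it gave an adjusted p.

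Most of the small differences pointed the same way. Of the 45 members 39 had a log2 fold change below 0, with a median of -0.05, where 49.1% of all genes were below 0 and their median was 0.0023. The members share the same 8 hearts and vary together across them, so they are not 39 separate observations. As a share of all reads assigned to genes the 45 members took 1.08%, 1.06%, 1.12% and 1.08% in female replicates 1 to 4, against 1.08%, 1.12%, 1.13% and 1.08% in male replicates 1, 3, 4 and 5. The sexes overlapped on this measure. Among markers of other cells, the macrophage genes C1qa, C1qb and Csf1r fell in females (adjusted p = 0.0359, 0.0493 and 0.0481, limma) while the fourth, Adgre1, did not pass, and the summed normalised read count of these 4 markers was 7760 to 9192 in females against 9771 to 12504 in males. Their part in the result was not tested. Of the 6 cardiomyocyte markers Ryr2 rose in females (log2 fold change 0.20, adjusted p = 0.0341 in limma) and 5 did not pass. Brown fat, a tissue dense in mitochondria, was represented by Ucp1, Cidea and Adipoq, of which 0 passed. Ucp1 had 100.5 ± 122 in females and 325 ± 283 in males, and Cidea had 1315 ± 51.7 and 1644 ± 199.98 in the same order, with no overlap (adjusted p = 0.0798 in limma). Adipoq pointed the other way, with 580.5 ± 483 in females and 454 ± 118 in males (log2 fold change 0.06, adjusted p = 0.974 in limma). Of the 4 fibroblast markers Lum rose in females (log2 fold change 0.30, adjusted p = 0.0028 in limma, no overlap) and Dcn, Pdgfra and Col1a1 did not pass, and the summed value of the 4 was 47641 to 50692 in females against 48505 to 49616 in males. The part of the brown fat and fibroblast markers in the result was not tested.

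**Figure D2:**
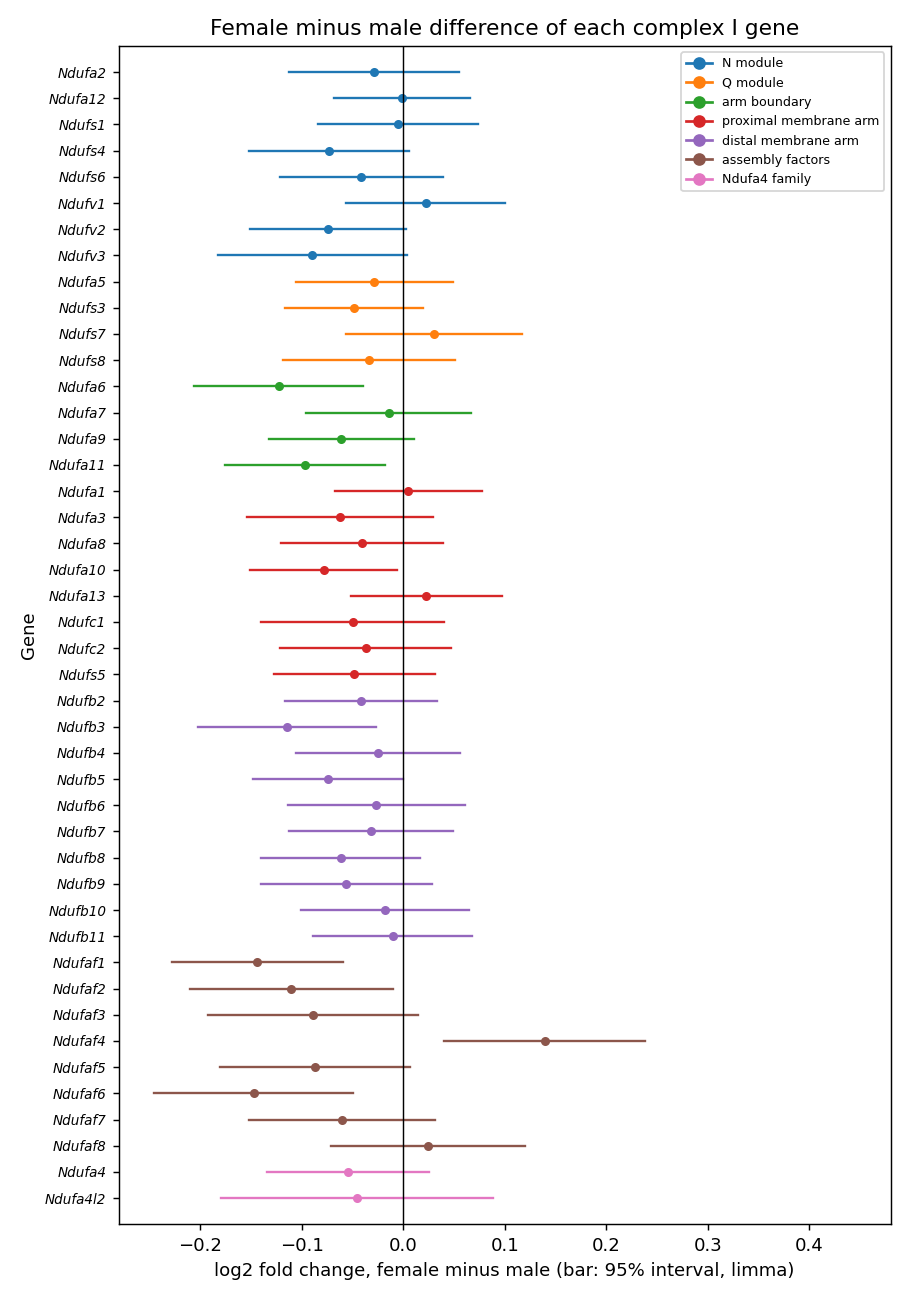
Log2 fold change, female minus male, of 44 of the 45 members with its 95% limma interval, in colours by role group. Of the 44 points 38 lie below 0, and none passed the adjusted threshold.

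In the N module, which holds the flavin and the entry point for NADH, all 8 genes failed to pass and the median log2 fold change was -0.03. Ndufv1, the subunit that binds NADH and the flavin, had 45163, 44433, 48169 and 43691 in female replicates 1 to 4, against 43935, 43444, 45853 and 45380 in male replicates 1, 3, 4 and 5. The sexes overlapped throughout, the highest heart being female replicate 3, and the log2 fold change was 0.02 (95% interval -0.06 to 0.10, adjusted p = 0.822 in limma). Ndufs1, the large iron-sulphur subunit, and Ndufa12, an accessory subunit, were the closest to 0 of this module, with 95% intervals of -5.66% to 5.26% and -4.64% to 4.65%. Ndufv3 and Ndufv2 had the largest differences of the module, -0.09 and -0.07, with adjusted p = 0.334 each in limma. Ndufs4, an accessory subunit whose loss causes an encephalopathy in mice, had 8968 ± 370.5 in females and 9433 ± 285 in males, a log2 fold change of -0.07 (adjusted p = 0.348 in limma).

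In the Q module all 5 genes failed to pass, with a median log2 fold change of -0.03. Ndufs7, which carries the iron-sulphur cluster that hands electrons to ubiquinone, had 23789, 23433, 25580 and 23313 in female replicates 1 to 4. In male replicates 1, 3, 4 and 5 it had 22596, 24657, 24068 and 22780. The hearts interleaved, with female replicate 3 highest and male replicate 1 lowest. The log2 fold change was 0.03 (adjusted p = 0.768 in limma, SE 0.04). Ndufs3, another core subunit of this module, had a log2 fold change of -0.05 and Ndufs8, which carries iron-sulphur clusters, one of -0.03 (adjusted p = 0.495 and 0.734 in limma).

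At the boundary of the arms all 4 genes had negative values, and Ndufa6 and Ndufa11 were among the 5 lower members with the smallest p. Ndufa6 (chromosome 15, 82350140 to 82354322), a protein of the LYR family that holds an acyl carrier subunit, had 11569, 11522, 12477 and 11234 in female replicates 1 to 4, against 12311, 12775, 13328 and 12526 in male replicates 1, 3, 4 and 5. Of the females only replicate 3 lay within the male range. The log2 fold change was -0.12 (adjusted p = 0.149 in limma, SE 0.04). Ndufa11, a membrane subunit, had 12113, 11703, 12730 and 11742 in the females and 12448, 12944, 13487 and 12745 in the males, in the same order of replicates. Again female replicate 3 alone reached the male range, and the log2 fold change was -0.10 (adjusted p = 0.223 in limma, SE 0.04). Ndufa7 and Ndufa9, the other two, had -0.01 and -0.06.

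The membrane arm gave the same picture. All 10 Ndufb subunits of its distal part and 6 of the 8 genes of its proximal part had negative values, with medians of -0.04 each, and 0 passed in limma. Ndufb3 had 7468, 7248, 7804 and 7045 in female replicates 1 to 4, against 7617, 8096, 8437 and 7850 in male replicates 1, 3, 4 and 5. Female replicate 3 lay inside the male range and the other females below it, and the log2 fold change was -0.11 (adjusted p = 0.196 in limma, SE 0.04). Ndufa10 and Ndufb5 had -0.08 and -0.07 (adjusted p = 0.274 and 0.309 in limma). Ndufa13, also known as GRIM-19 in the proximal arm, pointed the other way, with 19007, 18521, 19860 and 18552 in the females and 18740, 18265, 19508 and 18229 in the males. The ranges overlapped and the log2 fold change was 0.02 (adjusted p = 0.802 in limma). Of the exon bases of Ndufa13, 29.98% lie opposite Tssk6, so the source of part of its reads is uncertain, as for Ndufb6, of which 39.0% lie opposite Smim27.

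Ndufa1 and Ndufb11 are the X-linked members, and both had close levels in the sexes. Ndufa1 (chromosome X, 37187588 to 37191163, minus strand), a small proximal subunit, had 9448, 8941, 9587 and 9088 in female replicates 1 to 4, against 8878, 9278, 9358 and 9418 in male replicates 1, 3, 4 and 5. The hearts of the sexes interleaved, and the difference was 0.343% (95% interval -4.56% to 5.5%, adjusted p = 0.960 in limma). Ndufb11 (chromosome X, 20615326 to 20617619, minus strand), of the distal arm, had 18825, 18648, 19872 and 18495 in the females, against 18085, 19178, 19807 and 19323 in the males. Its difference was -0.710% (95% interval -5.96% to 4.83%, adjusted p = 0.926 in limma). The direction of each of these 2 small differences turned under some alternatives, 3 for Ndufa1 and 5 for Ndufb11, and 12.9% of the exon bases of Ndufb11 lie opposite Rbm10.

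The assembly factors held the largest differences in both directions. Ndufaf1 (chromosome 2, 119655446 to 119662827, minus strand) acts in a complex that builds the membrane arm. It had 2573, 2382, 2596 and 2392 in female replicates 1 to 4, against 2696, 2816, 2686 and 2779 in male replicates 1, 3, 4 and 5. Every female heart lay below every male heart. Means were 2486 ± 115 in females and 2744 ± 63.4 in males, a log2 fold change of -0.14 (adjusted p = 0.101 in limma, SE 0.04). Ndufaf1 is the 1 member with an adjusted p under 0.05 in the authors' deposited table (0.0436, log2 fold change -0.14). There 4.9% of genes with an adjusted p are called. The authors' values closely match the DESeq2 fit, so this call and the DESeq2 call of Ndufaf1 are not separate results. Over the alternatives tried the adjusted p of Ndufaf1 ran from 0.0437 to 0.434.

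Ndufaf6 (chromosome 4, 11051045 to 11076205, minus strand), needed early for the module around the mitochondrially encoded ND1, showed a similar separation. It had 873, 842, 869 and 810 in female replicates 1 to 4, against 915, 951, 956 and 935 in male replicates 1, 3, 4 and 5. The sexes did not overlap. The log2 fold change was -0.15 (adjusted p = 0.140 in limma, SE 0.05). Ndufaf1 and Ndufaf6 were the 2 members of 45 without overlap between the sexes, both lower in females, where 4.82% of all genes had no overlap in that direction. Without overlap and higher in females were 0 members, against 4.52% of all genes (9.35% in either direction).

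Ndufaf4 (chromosome 4, 24898083 to 24905001, plus strand) acts with Ndufaf3 in early assembly of the Q module, and its value was positive. It had 4284, 4792, 4909 and 5010 in female replicates 1 to 4, against 4329, 4429, 4247 and 4214 in male replicates 1, 3, 4 and 5. Females 2, 3 and 4 lay above all males, and female replicate 1 lay within the male range. Means were 4749 ± 322 in females and 4305 ± 95.9 in males, a log2 fold change of 0.14 (adjusted p = 0.161 in limma, SE 0.05). Without female replicate 1 it passed, with a log2 fold change of 0.19 (adjusted p = 0.0338 in limma), where 149 of 17910 genes did. That heart was the lowest of the females, so leaving it out was bound to enlarge the difference. Over all alternatives tried the adjusted p of Ndufaf4 ran from 0.0338 to 0.506. Its partner Ndufaf3 had a log2 fold change of -0.09 (adjusted p = 0.392 in limma), and whether the 2 genes differ in their sex difference was not tested.

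Of the other assembly factors, Ndufaf2 had 909, 899, 959 and 954 in female replicates 1 to 4, against 1005, 955, 1033 and 1023 in male replicates 1, 3, 4 and 5, a log2 fold change of -0.11 (adjusted p = 0.269 in limma). Its sexes overlapped in 1 male heart, replicate 3. Ndufaf5, which hydroxylates an arginine of Ndufs7, had -0.09, and Ndufaf7, a methyltransferase, had -0.06. Ndufaf8, the partner of Ndufaf5, had 1292, 1217, 1219 and 1173 in the females, against 1163, 1254, 1205 and 1196 in the males, and a log2 fold change of 0.02 (adjusted p = 0.843 in limma).

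**Figure D3:**
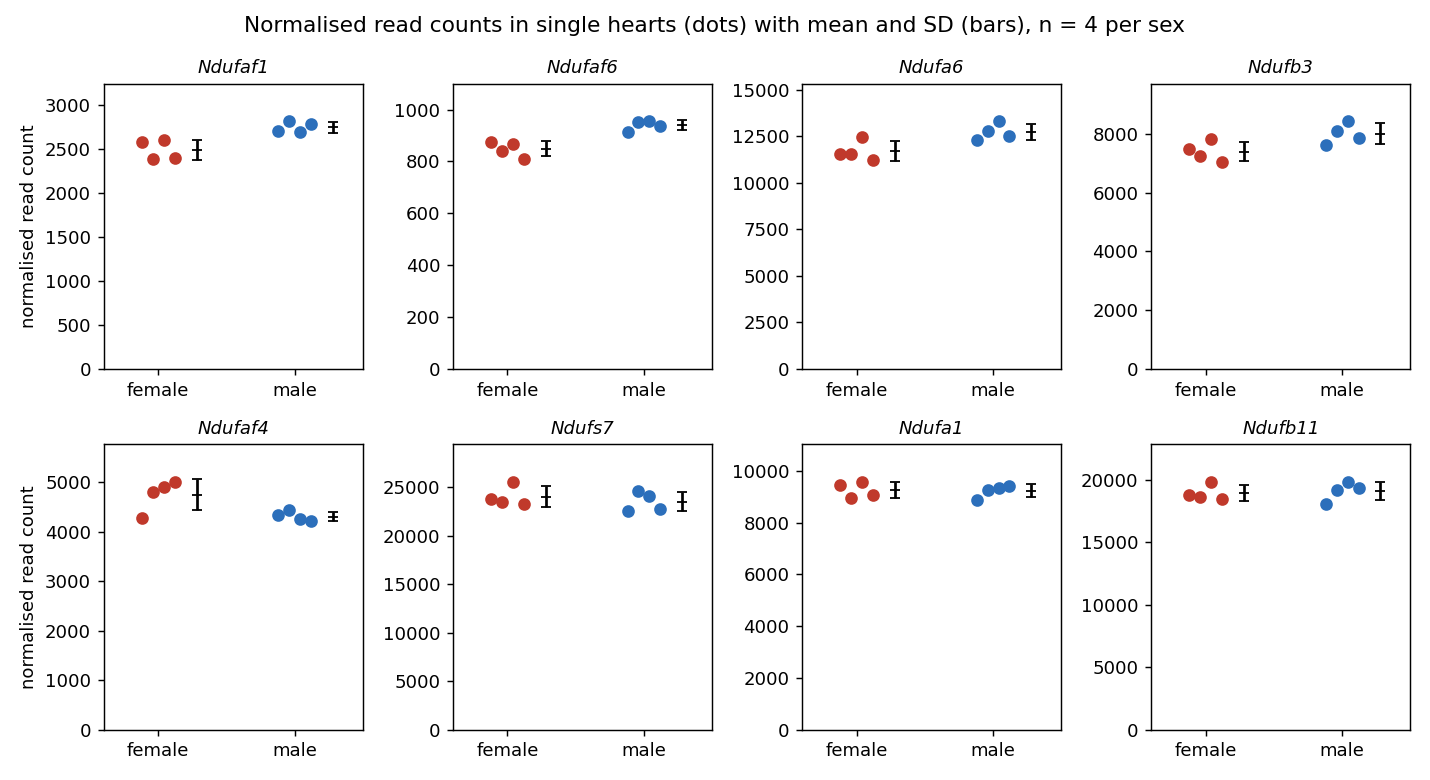
Normalised read counts of 8 members in single hearts (dots), with mean and SD (bars, n = 4 per sex), females left of males and axes from 0. Ndufaf1 and Ndufaf6 do not overlap between the sexes, 3 of the 4 females lie above all males for Ndufaf4, and the X-linked Ndufa1 and Ndufb11 overlap.

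Ndufa4, the abundant form of its family, was present far above Ndufa4l2, a relative known for its induction in low oxygen. Ndufa4 had 36069, 35673, 38682 and 35333 in female replicates 1 to 4, against 36482, 38873, 38774 and 37210 in male replicates 1, 3, 4 and 5, with overlap (log2 fold change -0.05, adjusted p = 0.513 in limma). Ndufa4l2 had 931, 875, 844 and 914 in the females and 947, 1017, 857 and 863 in the males, also with overlap (log2 fold change -0.05, adjusted p = 0.778 in limma). Per length Ndufa4l2 made up 3.00% ± 0.225 of the pair in females and 2.98% ± 0.240 in males, 0.0174 percentage points apart (two-sided exact permutation p = 1 over 70 assignments, where the smallest possible is 0.0286). By the longest coding transcript the shares were 1.58% ± 0.12 and 1.57% ± 0.128 in the same order.

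The members varied little between single hearts, and the subunits did so together. Their median coefficient of variation within a sex was 3.68%, against 3.98% for the 7615 genes in the same range of mean values and 7.6% for all genes. The ratio of the highest to the lowest heart ran from 1.07 to 1.20, with a median of 1.11. All 35 subunits were higher in female replicate 3 than in the other 3 females, by 3.12% to 11.9% of the mean of those, with a median of 7.54%. In 28 of the 35 female replicate 3 also exceeded the male mean, while in 30 of the 35 the other 3 females were all below it. Among males replicate 4 was highest for 24 subunits and replicate 1 lowest for 28. The genes in the same range of mean values showed this order for fewer of their number: female replicate 3 was the highest female for 2576 of 7615, male replicate 4 the highest male for 2054 and male replicate 1 the lowest for 2156.

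The position of female replicate 3 bears on the comparison of the sexes. Without it the median log2 fold change of the 45 members was -0.07 and 41 were negative. Then 23 had an unadjusted p under 0.05, and still 0 passed in limma, where 110 of 17910 genes did. The count of 9 members with an unadjusted p under 0.05 also became 14 without male replicate 1. It became 5 without female replicate 2, 5 without female replicate 4 and 4 without male replicate 4. In the same order 137, 77, 129 and 85 of all genes passed the adjusted threshold. The share of all genes with an unadjusted p under 0.05 was taken only in the full fit (16%). Whether these changes are particular to the members was not tested. Without male replicate 4 the median of the members was -0.03 and 37 were negative. In female replicate 3 the cardiomyocyte markers also stood highest, with a median of 0.13 above the gene means on the log2 scale, and 5 of the 6 had their highest value there. The summed macrophage markers were lowest in that heart, at 7760. In male replicate 4, where the subunits were also high, the cardiomyocyte markers had a median of -0.01. The part of these markers in the pattern of the members was not tested.

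**Figure D4:**
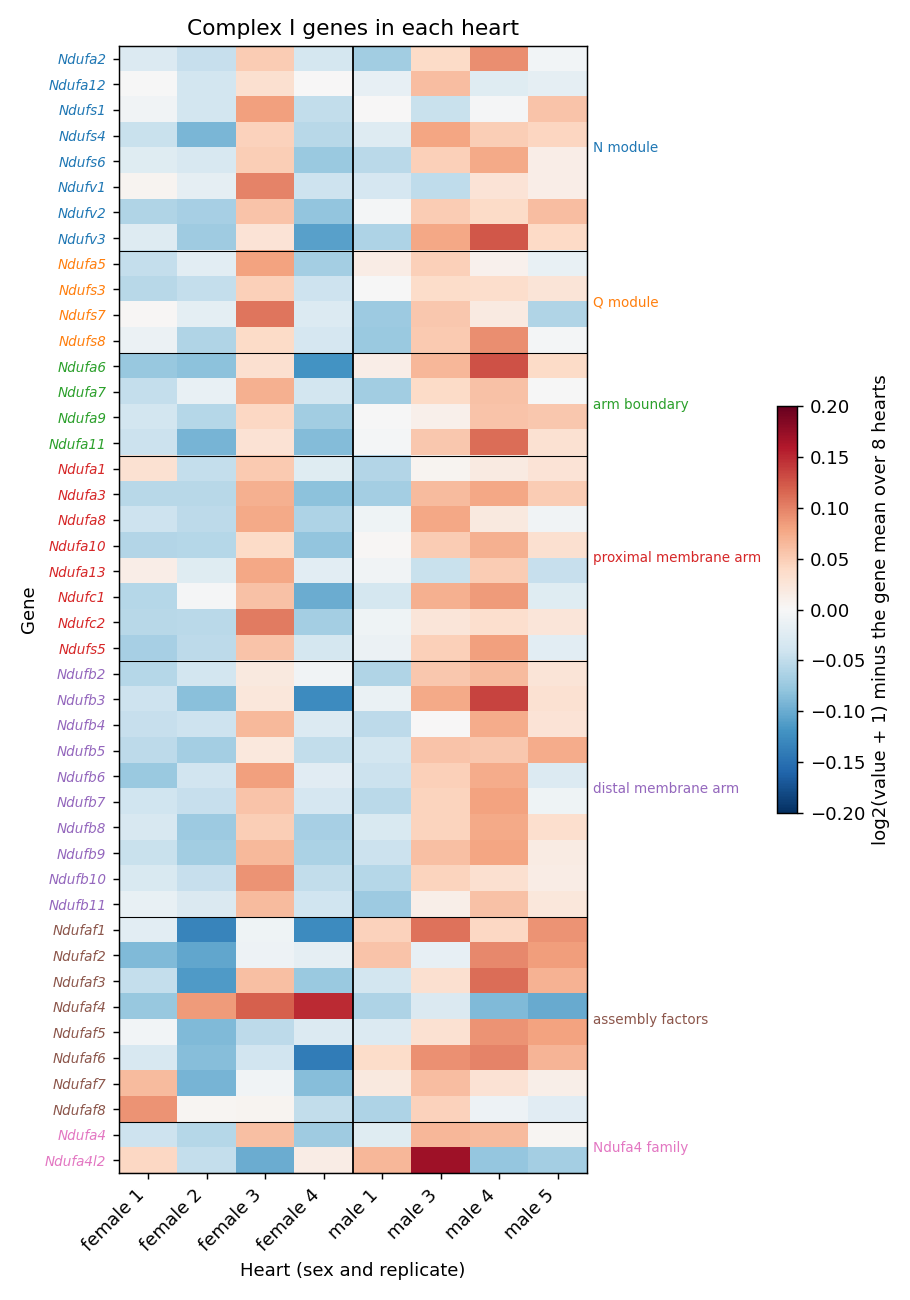
The log2(value + 1) of 44 of the 45 members minus each gene's mean over the 8 hearts, genes in rows by role group and hearts in columns, females left of males. Subunits are mostly above their means in female replicate 3, male replicates 3 and 4 and, for fewer subunits, male replicate 5. They are mostly below in the other females and male replicate 1. Ndufaf4 is above its mean in female replicates 2, 3 and 4 and below it in female replicate 1 and all 4 males.

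Assembly factors followed the subunits only in part. Of the 8, 3 were highest of the females in female replicate 3 and 4 in female replicate 1. Ndufaf4 was highest of all hearts in female replicate 4 and lowest in male replicate 5, whereas 14 of the 35 subunits were lowest of all hearts in female replicate 4.

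The subunits of complex I encoded in the mitochondrial genome, which form the core of the membrane arm, shared the pattern of the nuclear subunits only in part. All 7 (mt-Nd1, mt-Nd2, mt-Nd3, mt-Nd4, mt-Nd4l, mt-Nd5 and mt-Nd6) had negative log2 fold changes, from -0.13 (mt-Nd2) to -0.05 (mt-Nd5), with a median of -0.10, and 0 passed in limma. The smallest limma adjusted p was 0.164, for mt-Nd2, which had 993108 ± 41156 in females and 1087050 ± 50666 in males, with no overlap. The 7 were all lowest in female replicate 4, where 14 of the 35 nuclear subunits were lowest too. Among the males the 7 were all lowest in replicate 4, where 24 nuclear subunits were highest. Summed over genes without correction for length, mitochondrial genome reads stood to nuclear subunit reads as 7.87, 8.14, 7.5 and 7.57 to 1 in female replicates 1 to 4. The ratios were 8.43, 7.85, 7.39 and 8.56 in male replicates 1, 3, 4 and 5, so the sexes overlapped. Without correction for length, values of mt-Nd3 and mt-Nd4l were far below the rest. They were 3958 ± 438 and 1514 ± 145 in females and 4314 ± 215 and 1639 ± 73.3 in males. Levels per length and overlap with other genes were not worked out for the mitochondrial genes, so this gap does not rank their levels.

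**Figure D5:**
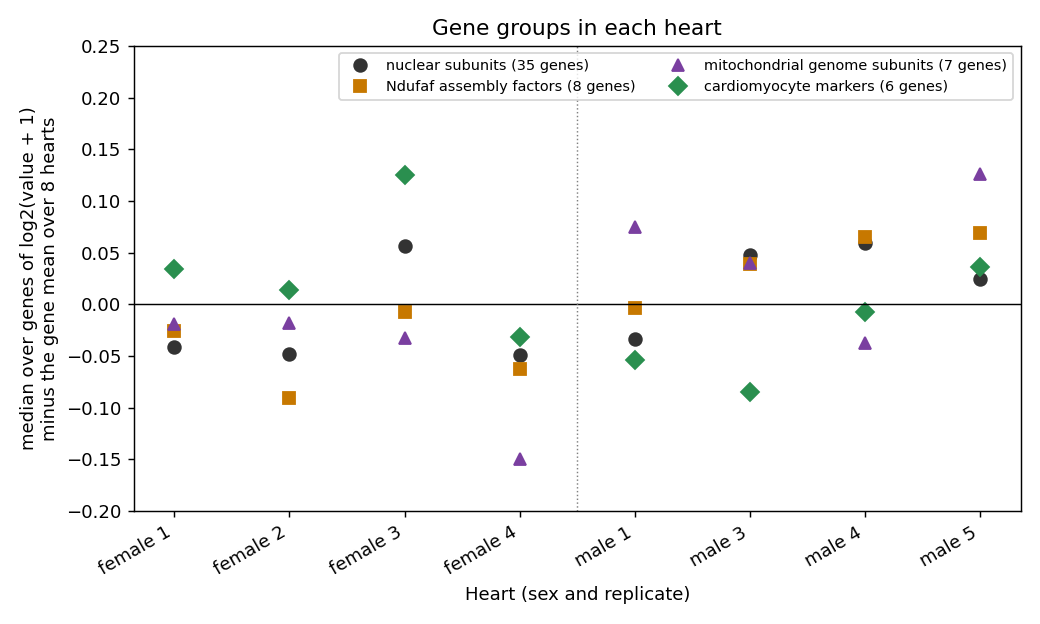
Median over the genes of a group of log2(value + 1) minus each gene's mean over the 8 hearts, for nuclear subunits, Ndufaf assembly factors, mitochondrial genome subunits and cardiomyocyte markers, females left of males. Nuclear subunits stand at 0.06 in both female replicate 3 and male replicate 4, where mitochondrial genome subunits stand at -0.03 and -0.04.

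The remaining genes of the pathway gave no call either. Ndufab1 had 20656 ± 1013 in females and 21528 ± 623 in males, a log2 fold change of -0.06 (adjusted p = 0.481 in limma), and like the other subunits it was the highest of the females in female replicate 3. Of 14 measured assembly factors with other names 12 had negative values, with a median of -0.07, and 0 passed in limma. The largest was that of Lyrm2 (-0.15, adjusted p = 0.140 in limma), followed by Tmem126b of the membrane arm assembly complex (-0.12, adjusted p = 0.161 in limma). Acad9 and Ecsit, which act with Ndufaf1 and Tmem126b in that complex, had -0.07 and -0.02.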

How the data were processed

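RNA of 8 single mouse hearts, 4 female and 4 male, was sequenced. Per the labels' protocols a small RNA kit was used for extraction, although the molecule field reads total RNA. Per the submitters' processing notes mm10 was the genome build. For the aligner, the counter and its strand setting, any filter and the authors' own test, the sources used here state nothing. Each deposited signal column holds read counts after division by 1 size factor per heart: 100% of values were whole multiples of the value of 1 read (tolerance 0.001 reads), and multiplying back gave the reads. The authors' deposited table also holds their log2 fold change and their p-values for the sexes. These closely match DESeq2 on the recovered reads: each called 690 of 14088 genes, and Ndufa10 had a log2 fold change of -0.0779 in both.

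The 45 members are the genes whose deposited name matched the pattern of complex I names. The members, the role groups and the gene lists were chosen with earlier results of these data known. All 17911 genes were tested together by limma 3.58.1 in R 4.3.3, with a mean-variance trend and robust moderation, on log2(value + 1), and p-values were adjusted by Benjamini-Hochberg over all of them at a threshold of 0.05. Requiring a value of at least 1 in at least 4 hearts removed 0 genes. Low genes have their fold changes understated on that scale. Intervals are limma's 95% intervals for single genes and are not adjusted for the number of genes. Nothing in the labels says that the hearts came from separate litters, so p-values measure the spread between these 8 samples. Exon lengths and positions came from GENCODE M21, which is on the same build, matched by gene identifier for all 45 members. Alternatives were edgeR 4.0.16, DESeq2 1.42.0 and limma-voom applied to the reads, other pseudocounts and filters, blocks by replicate number, total reads as a covariate and leaving out hearts. The fits were checked on simulated counts, drawn for each gene separately and with larger changes than the members showed. That check does not cover differences as small as those of the members, or genes that vary together. Values per heart are given by rule for the 5 members with the smallest p in each direction, the X-linked members, Ndufa4 and Ndufa4l2, and the highest and lowest level per length, and for a member with 1 heart apart from its group that heart and the range of the others. The values of 1 member are not reported here, although it stays in the counts and medians.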

Additional observations from a re-analysis of the deposited data

Results flagged for a closer look

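In 90 groups of 4 hearts (45 members in each sex), 1 heart stood apart from the other 3 in 9, where chance gives about 1 in 20. In 8 of the 9 that heart was female replicate 3, the highest. It had 15169 for Ndufa3 (others 13637 to 13894), 20214 for Ndufa8 (others 18389 to 18651) and 26297 for Ndufb10 (others 23883 to 24208). Likewise Ndufb4 had 4942 there (others 4578 to 4638), Ndufb7 had 13481 (others 12556 to 12662) and Ndufc2 had 8907 (others 7912 to 7982). Ndufs3 had 17881 (others 16655 to 16816) and Ndufv2 had 28554 (others 25982 to 26322). Among males Ndufa12 had 16808 in replicate 3 (others 15840 to 15921). The members vary together, so the 8 flags in 1 heart are not separate observations.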

How the results depend on the processing

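The count of members called was 0 in limma and in each alternative except DESeq2, with 1 (Ndufaf1), and leaving out 1 heart, where it ran from 0 to 1 (Ndufaf4, without female replicate 1). The thresholds of the series' design text, an unadjusted p under 0.05 and a log2 fold change beyond 0.6 in either direction, also gave 0. They took 269 of 17911 genes. The member furthest from 0 was Ndufaf6 at -0.15, so the fold threshold alone left out every member. Over all genes the count of 208 became 690 with DESeq2, 352 without the 2 hearts with the fewest reads (chosen after seeing the data), and between 77 and 516 without 1 heart. The number of negative members, 39, ran from 30 to 41 and their median from -0.07 to -0.03; 32 of the 45 kept their sign under all 21 alternatives.

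No label states whether replicate numbers pair the hearts, and so few shared numbers cannot settle it. The deviations of same-numbered hearts from their group means correlated by 0.19, -0.07 and -0.09 for the title numbers 1, 3 and 4. For the library code numbers 1, 3 and 5 they correlated by 0.19, -0.07 and 0.19, and of the 6 numbered hearts 2 correlated best with their own title number and 3 with their own library code number. With a replicate block by title number 145 genes and 0 members were called, and with a block by library code number 26 genes and 0 members. The block by library code number left 30 of the 45 members negative. Each member had at least 665 reads in every heart. The order of levels within the subunits changed with the exon length used.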
